A study of Mus musculus with 23 samples.

Results

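The genes of the proteasome were followed in 23 microarray samples of mouse microglia, the resident macrophages of the brain. Members were all probe sets whose annotated symbol begins with Psma, Psmb, Psmc, Psmd, Psme, Psmf or Psmg, without Psmb8, Psmb9 and Psmb10. The rule took 47 of the 22203 probe sets in the table, each for a different gene. Of these, 45 are proteasome genes, and Psmc3ip and Psme3ip1 carry a similar symbol but are no subunits. Psmb5, a catalytic subunit of the core, was not analysed here.

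The microglia came from cortex and hippocampus and were sorted as CD45+ CD11b+ cells. The APP group of 4 samples came from the APPswlnd line at 12 months, a strain with a mutant human amyloid precursor protein transgene, and held the cells the labels call active, sorted as Clec7a+. The TAU group of 4 samples came from the P301S (PS19) line with a mutant human tau transgene and was sorted as Clec7a+ too. Its age is 9 months in the age field, while its titles read 12 months. Both are called gated below. C57BL6 wild-type mice (WT) of 12 months gave 4 samples with no Clec7a gate named. At 3 months, also with no such gate named, there were 3 APP, 4 TAU and 4 WT samples. Genotype and gate differ together between the gated groups and WT 12m, and so cannot be told apart; age is confounded with them for TAU. The labels name the replicates biological, without stating whether each is 1 mouse, and a p-value here rests on the spread from sample to sample.

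The proteasome degrades proteins that carry ubiquitin chains. Its core is a barrel of alpha rings (Psma genes) around beta rings (Psmb genes), in which 3 kinds of beta subunit cut proteins. A regulatory cap of ATPases (Psmc genes) and other subunits (Psmd genes) binds ubiquitin and unfolds the substrate. Other caps, the activators (Psme genes), open the core without ubiquitin, and dedicated chaperones (Psmg genes for the core, Psmd5, Psmd9 and Psmd10 for the cap) assist assembly. In cells exposed to interferon gamma, Psmb8, Psmb9 and Psmb10 replace the standard catalytic subunits, and Psme1 and Psme2 are known to be induced along with them.

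The promoters of the 4 genes with the most stable differences are printed first, since these are the sequences upstream of the transcripts described below. They are RefSeq windows on GRCm38.p6, from 250 bases before to 50 after the start of the gene. Capitals mark TGACNNNGC, the core of the antioxidant response element, in Psmb6, and the core of the interferon-stimulated response element, GAAA and again GAAA with any 2 bases between, in Psmg4 and Psme1. The Psme2 window, the first of 2 in the table, holds neither and has no capitals.
Psmb6, chr11:70525107-70525406, + strand: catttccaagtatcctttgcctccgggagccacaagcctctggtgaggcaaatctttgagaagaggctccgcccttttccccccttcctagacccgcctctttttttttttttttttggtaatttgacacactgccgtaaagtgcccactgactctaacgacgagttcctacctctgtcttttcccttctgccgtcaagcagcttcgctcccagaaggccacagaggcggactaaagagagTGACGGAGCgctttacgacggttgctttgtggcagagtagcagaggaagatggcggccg
Psmg4, chr13:34162714-34163013, + strand: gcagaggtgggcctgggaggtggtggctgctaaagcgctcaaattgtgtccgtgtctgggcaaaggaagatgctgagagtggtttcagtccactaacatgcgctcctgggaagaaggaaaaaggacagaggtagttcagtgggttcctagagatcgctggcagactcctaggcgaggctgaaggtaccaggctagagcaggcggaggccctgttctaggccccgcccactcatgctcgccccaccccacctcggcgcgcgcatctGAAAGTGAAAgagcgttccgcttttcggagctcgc
Psme1, chr14:55578244-55578543, + strand: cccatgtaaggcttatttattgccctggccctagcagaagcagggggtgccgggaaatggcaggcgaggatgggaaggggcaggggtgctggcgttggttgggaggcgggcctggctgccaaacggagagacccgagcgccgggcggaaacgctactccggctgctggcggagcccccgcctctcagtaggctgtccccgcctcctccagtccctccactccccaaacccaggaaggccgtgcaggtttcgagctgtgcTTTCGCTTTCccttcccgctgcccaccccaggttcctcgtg
Psme2, chr14:55591052-55591351, - strand: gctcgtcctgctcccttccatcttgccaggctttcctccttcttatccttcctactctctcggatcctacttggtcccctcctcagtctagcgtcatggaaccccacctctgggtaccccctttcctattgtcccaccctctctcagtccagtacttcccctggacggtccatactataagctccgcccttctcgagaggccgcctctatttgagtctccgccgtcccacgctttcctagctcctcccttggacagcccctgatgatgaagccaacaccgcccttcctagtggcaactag
The marked stretch lies at -9 to -1 from the start in Psmb6. It lies at 16 to 25 in Psmg4, and at 10 to 19 on the opposite strand in Psme1.

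All arrays measured the same probe sets, as log2 signals. Array medians were 6.87 to 7.13 and the SD of all signals on an array was 2.40 to 2.60. Samples of 1 group correlated with each other at 0.931 to 0.986. The number of arrays limits the precision, with a median standard error of 0.25 for a member's log2 fold change between groups of 4. A background level was taken as the 95th percentile of 1447 chemosensory receptor probe sets in each group, and was 7.73 to 8.12. Of the 47 members, 41 lay above it in every group. Psma8 (a testis alpha subunit), Psmb11 (a beta subunit of the thymus) and Psmd5 (a cap chaperone) were at background in all 6 groups, and Psmg3 in 5, Psmf1 in 4 and Psmg2 in 1. Microglial markers were high, with a mean over 11 genes of 14.4 in gated APP, 14.5 in gated TAU and 15.4 in WT 12m. All 5 monocyte and all 6 T and NK markers were at background in these groups. Of 6 neuron markers 2 were at background in each, and of 7 astrocyte markers 2 in gated APP and 3 in the others. The remaining neuron and astrocyte markers lay above it. The neuron mean was 7.91 in gated APP, 8.07 in gated TAU and 7.80 in WT 12m, and the astrocyte mean 8.79, 8.17 and 8.87.

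In gated APP, 6 of the 47 members were higher than in WT 12m and 0 were lower at a Benjamini-Hochberg adjusted p under 0.05 in limma over all probe sets. They were the core subunits Psmb6, Psmb1 and Psmb4, the core chaperone Psmg4, and the activator subunits Psme1 and Psme2. Across the whole array, 5.60% of probe sets passed the same test upward and 3.48% downward. Among the 7834 with a mean above background, 11.8% passed upward. The 12.8% of members called is close to this share, but the 2 have unlike bases. Percentages of members called, here and in the other comparisons, are over all 47 members, of which 42 pass that filter. In gated TAU, 5 of 47 (10.6%) were higher than in WT 12m and 0 were lower, against 5.09% of all probe sets higher and 3.67% lower, and 10.3% higher of those above background. These were Psmb6, Psma5, Psmg4, Psme1 and Psme2. Both comparisons use the same 4 WT 12m samples. An unadjusted p under 0.05 was reached by 10 members in gated APP and by 13 in gated TAU, all higher. No share of all probe sets at that unadjusted threshold was counted, here or below, so no excess is read from these counts. The median log2 fold change over the 47 members was 0.27 in gated APP, against -0.06 over all probe sets, and 0.33 in gated TAU, against -0.05. Only 7834 of the 22203 probe sets have a mean above background, and no median over them is given. No shift of the members relative to the array is read from these medians.

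Psmb6 is the catalytic beta subunit that cuts after acidic residues, and it showed the largest difference of the members in both comparisons. Its log2 signal was 13.16, 13.37, 12.79 and 12.68 in gated APP, 12.51, 12.52, 12.49 and 12.06 in gated TAU, and 10.63, 10.44, 10.95 and 10.15 in WT 12m. All 8 gated samples lay more than 1 log2 unit above the highest WT 12m sample. Psmb6 was 5.49-fold higher in gated APP than in WT 12m (log2 2.46 ± 0.22 SE, adjusted p = 4.97e-08). It was 3.61-fold higher in gated TAU than in WT 12m (log2 1.85 ± 0.22, adjusted p = 4.88e-06). The young groups were low as well. Psmb6 had 10.72, 10.94 and 10.85 in APP 3m, 11.2, 10.87, 10.84 and 10.21 in TAU 3m, and 11.42, 11.01, 10.84 and 10.58 in WT 3m. The highest of these, in WT 3m, was still below every gated sample.

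The other catalytic subunit measured, Psmb7, which cuts after basic residues, did not pass the test in either gated group. It had 11.63, 12.31, 11.8 and 11.98 in gated APP, 12.53, 12.26, 12.57 and 11.79 in gated TAU, and 11.78, 11.29, 12.06 and 11.12 in WT 12m. These ranges overlapped. The log2 fold change was 0.37 (95% interval -0.15 to 0.89, adjusted p = 0.425) in gated APP and 0.73 (0.20 to 1.25, adjusted p = 0.0773) in gated TAU, each against WT 12m. Whether Psmb6 and Psmb7 differ in their change was not tested.

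Psmb1 and Psmb4 are structural beta subunits without a catalytic site. Psmb1 had 14.17, 14.42, 14.3 and 14.5 in gated APP, 14.34, 14.31, 14.58 and 13.68 in gated TAU, and 13.32, 13.23, 13.97 and 13.2 in WT 12m. All 4 gated APP samples were above all 4 WT 12m samples, while 1 gated TAU sample fell below the highest WT 12m one. Psmb1 was 1.89-fold higher in gated APP (log2 0.92 ± 0.27, adjusted p = 0.0299), and its log2 fold change in gated TAU was 0.80 ± 0.27 (adjusted p = 0.065). Psmb4 had 13.57, 14.25, 14.14 and 13.99 in gated APP, 13.73, 14.09, 14.09 and 13.5 in gated TAU, and 13.13, 12.42, 13.81 and 12.85 in WT 12m. Its groups overlapped in both comparisons, through WT 12m replicate 3. Psmb4 was 1.91-fold higher in gated APP (adjusted p = 0.0364), and its log2 fold change in gated TAU was 0.80 ± 0.28 (adjusted p = 0.0808). Psmb1 was no longer called in gated APP without any 1 of 6 of the 8 samples compared, and neither was Psmb4, with adjusted p up to 0.0921 for Psmb1 and 0.156 for Psmb4 over these fits.

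Among the alpha subunits, which form the outer rings and the gate of the core, Psma5 was called in gated TAU. Psma5 had 14.06, 14.2, 14.39 and 14.43 in gated APP, 14.6, 14.64, 14.72 and 14.27 in gated TAU, and 13.78, 13.22, 13.84 and 13.19 in WT 12m. Both gated groups lay wholly above WT 12m. Psma5 was 2.07-fold higher in gated TAU (log2 1.05 ± 0.27, adjusted p = 0.0143), and its log2 fold change in gated APP was 0.76 ± 0.27 (adjusted p = 0.0822). The gated TAU call ended without WT 12m replicate 2 (adjusted p = 0.0519) or replicate 4 (adjusted p = 0.0528). Psma7, another alpha subunit, had log2 fold changes of 0.97 ± 0.39 in gated APP (adjusted p = 0.145) and 1.09 ± 0.39 in gated TAU (adjusted p = 0.0935), with WT 12m samples spread from 10.67 to 12.1. Psma8 was at background in both gated groups, with differences of -0.05 and 0.01 on the log2 scale.

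**Figure D1:**
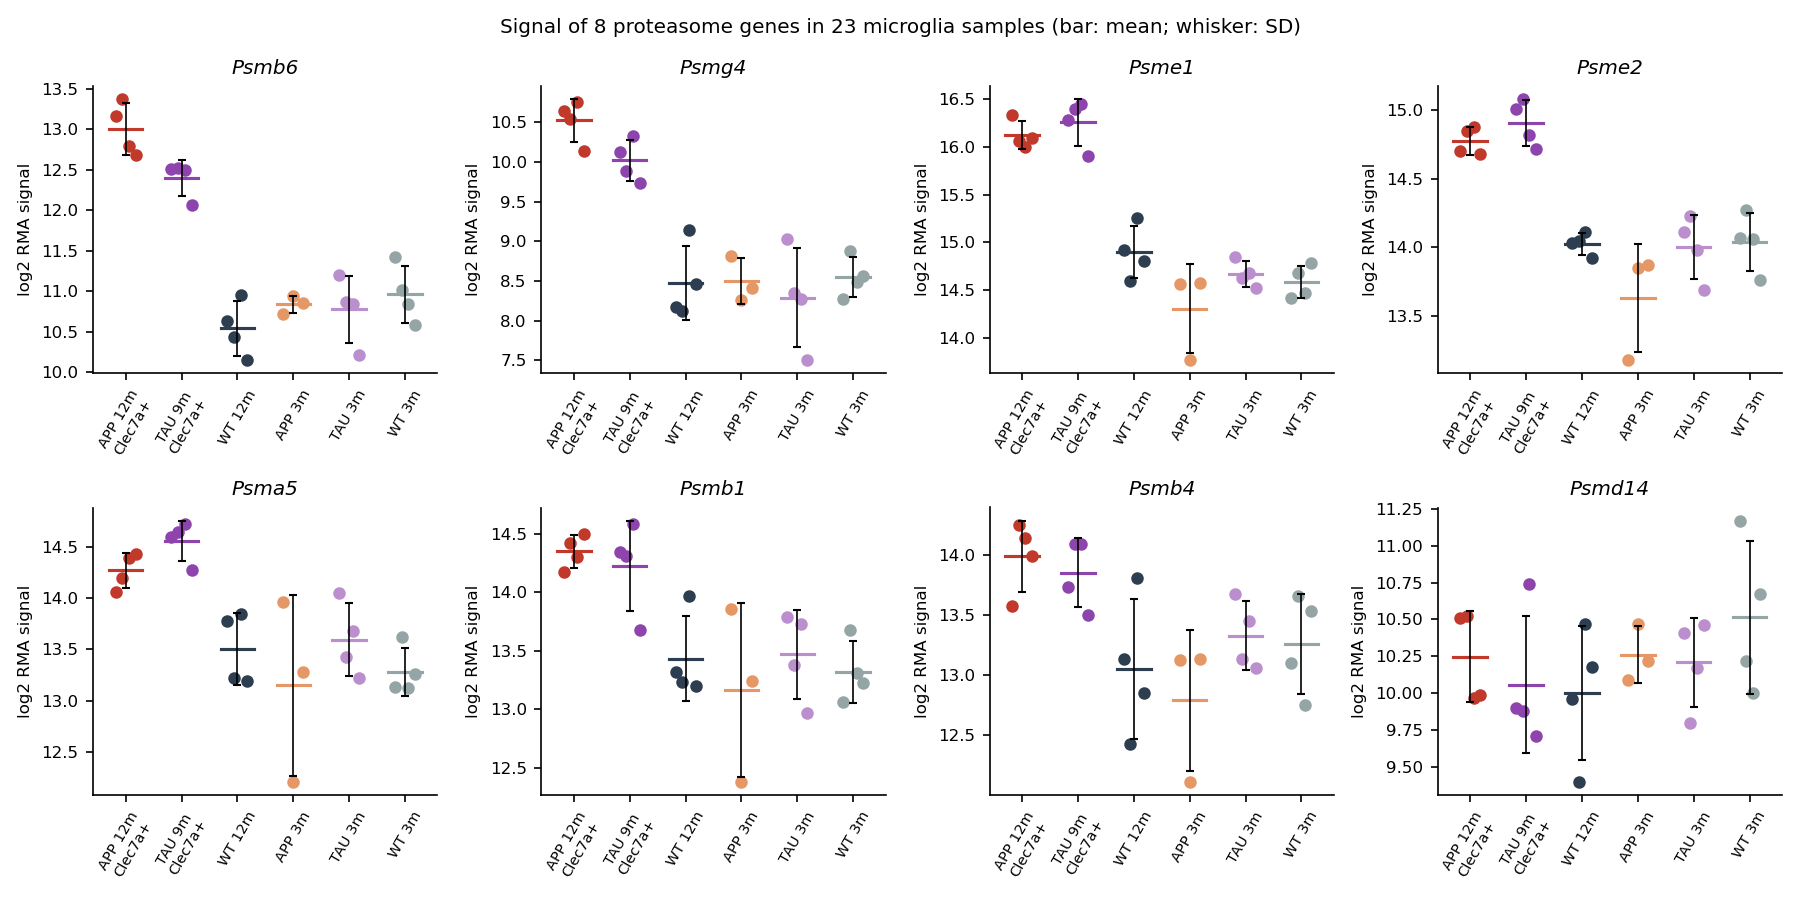
Log2 RMA signal (y axis) of 8 proteasome genes in each sample of the 6 groups (x axis); points are samples, bars group means and whiskers 1 SD. Psmb6, Psmg4 and Psme1 lie higher in every gated sample than in any ungated one, Psmb4 overlaps WT 12m through 1 sample, and the cap subunit Psmd14 overlaps throughout.

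The activator formed by Psme1 and Psme2 widens the gate of the core and is known for its part in making peptides for MHC class I. Psme1 had 16.33, 16.06, 16 and 16.09 in gated APP, 16.28, 16.39, 16.44 and 15.9 in gated TAU, and 14.92, 14.6, 15.25 and 14.81 in WT 12m. The lowest gated sample lay above the highest WT 12m sample. Psme1 was 2.34-fold higher in gated APP (log2 1.23 ± 0.19, adjusted p = 7.25e-05) and 2.56-fold higher in gated TAU (log2 1.36 ± 0.19, adjusted p = 2.74e-05), each against WT 12m. At 3 months Psme1 was lower than in every gated sample, between 13.77 and 14.58 in APP, 14.52 and 14.85 in TAU, and 14.42 and 14.78 in WT.

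Psme2 differed less but with little spread. It had 14.7, 14.85, 14.88 and 14.68 in gated APP, 15.01, 15.08, 14.82 and 14.72 in gated TAU, and 14.03, 14.05, 14.11 and 13.92 in WT 12m. No gated sample overlapped WT 12m. Psme2 was 1.68-fold higher in gated APP (log2 0.75 ± 0.17, adjusted p = 0.00398) and 1.84-fold higher in gated TAU (log2 0.88 ± 0.17, adjusted p = 0.00116). Psme2b is a near-identical copy of Psme2, so the 2 probe sets may measure the same transcripts in part. Psme2b had 13.8, 13.72, 13.74 and 13.33 in gated APP, 13.94, 14.3, 13.73 and 13.91 in gated TAU, and 13.42, 13.19, 13.5 and 13.1 in WT 12m. It was not called in gated APP (log2 0.35 ± 0.27, adjusted p = 0.493) or in gated TAU (log2 0.67 ± 0.27, adjusted p = 0.139), though all 4 gated TAU samples were above all WT 12m samples.

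The activators of other complexes did not pass the test. Psme3, the subunit of a nuclear activator, had a log2 fold change of 0.38 (95% interval -0.16 to 0.92) in gated APP and 0.22 (-0.32 to 0.76) in gated TAU. Psme4, a large single-chain activator, had -0.48 (-1.16 to 0.20) in gated APP and -0.07 (-0.75 to 0.61) in gated TAU. Gated APP replicate 1 was the lowest Psme4 sample at 7.93, against 8.99 to 9.63 in the other 3 and 9.07 to 9.83 in WT 12m. Psmf1, a regulator that inhibits the core in vitro, lay near background, with means of 7.85 in gated APP, 7.99 in gated TAU and 7.69 in WT 12m.

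Psmg4, which pairs with Psmg3 in a chaperone of alpha ring assembly, differed from WT 12m by more than 1 log2 unit in both gated groups, as Psmb6 and Psme1 did and no other member. It had 10.65, 10.55, 10.76 and 10.14 in gated APP, 10.13, 9.89, 10.33 and 9.74 in gated TAU, and 8.17, 8.12, 9.14 and 8.46 in WT 12m. Gated and WT 12m samples did not overlap, and the lower WT 12m samples lay at the background level of 8.12. Psmg4 was 4.15-fold higher in gated APP (log2 2.05 ± 0.26, adjusted p = 8.72e-06) and 2.93-fold higher in gated TAU (log2 1.55 ± 0.26, adjusted p = 0.00042). In the young groups Psmg4 averaged 8.50 ± 0.29 in APP 3m (SD, n = 3), 8.29 ± 0.63 in TAU 3m and 8.55 ± 0.25 in WT 3m (SD, n = 4 each). Its partner Psmg3 averaged 7.60, 7.95 and 7.54 in gated APP, gated TAU and WT 12m, at background in gated APP and WT 12m. The other pair of core chaperones, Psmg1 and Psmg2, had log2 fold changes of 0.10 ± 0.18 and -0.07 ± 0.27 in gated APP and of -0.03 ± 0.18 and 0.09 ± 0.27 in gated TAU. In all, 1 of 7 assembly chaperones was called in each comparison, where 5.60% and 5.09% of all probe sets were called higher.

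None of the 17 cap subunits among the members was called in either gated group by limma. In each group, 2 of them had an unadjusted p under 0.05. Of all probe sets, 5.60% were called higher in gated APP and 5.09% in gated TAU, and 11.8% and 10.3% of those above background. Against these shares, 0 of 17 does not set the cap apart, and the classes were not compared by a test. Sem1, a cap subunit whose symbol falls outside the rule, was called in both gated groups and is described below. Psmd14, the deubiquitinase that removes ubiquitin chains from the substrate, had 10.51, 10.52, 9.97 and 9.99 in gated APP, 9.9, 9.88, 10.74 and 9.71 in gated TAU, and 9.96, 9.4, 10.47 and 10.18 in WT 12m. These groups overlapped, with log2 fold changes of 0.25 ± 0.27 and 0.06 ± 0.27. The ubiquitin receptor Psmd4 had 0.34 ± 0.24 in gated APP and 0.21 ± 0.24 in gated TAU, the scaffold subunits Psmd1 and Psmd2 had 0.20 ± 0.31 and 0.05 ± 0.28 in gated APP and 0.14 ± 0.31 and -0.04 ± 0.28 in gated TAU, and the ATPase Psmc1 had 0.25 ± 0.24 and 0.33 ± 0.24. Among the 17, the smallest adjusted p was 0.0769 in gated APP and 0.139 in gated TAU, both for the subunit Psmd8, named after its values were seen. The data do not exclude modest differences. The upper 95% bound was under 1 log2 unit for 12 of 17 cap subunits in gated APP and 13 of 17 in gated TAU, and reached 1.32 and 1.39.

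**Figure D2:**
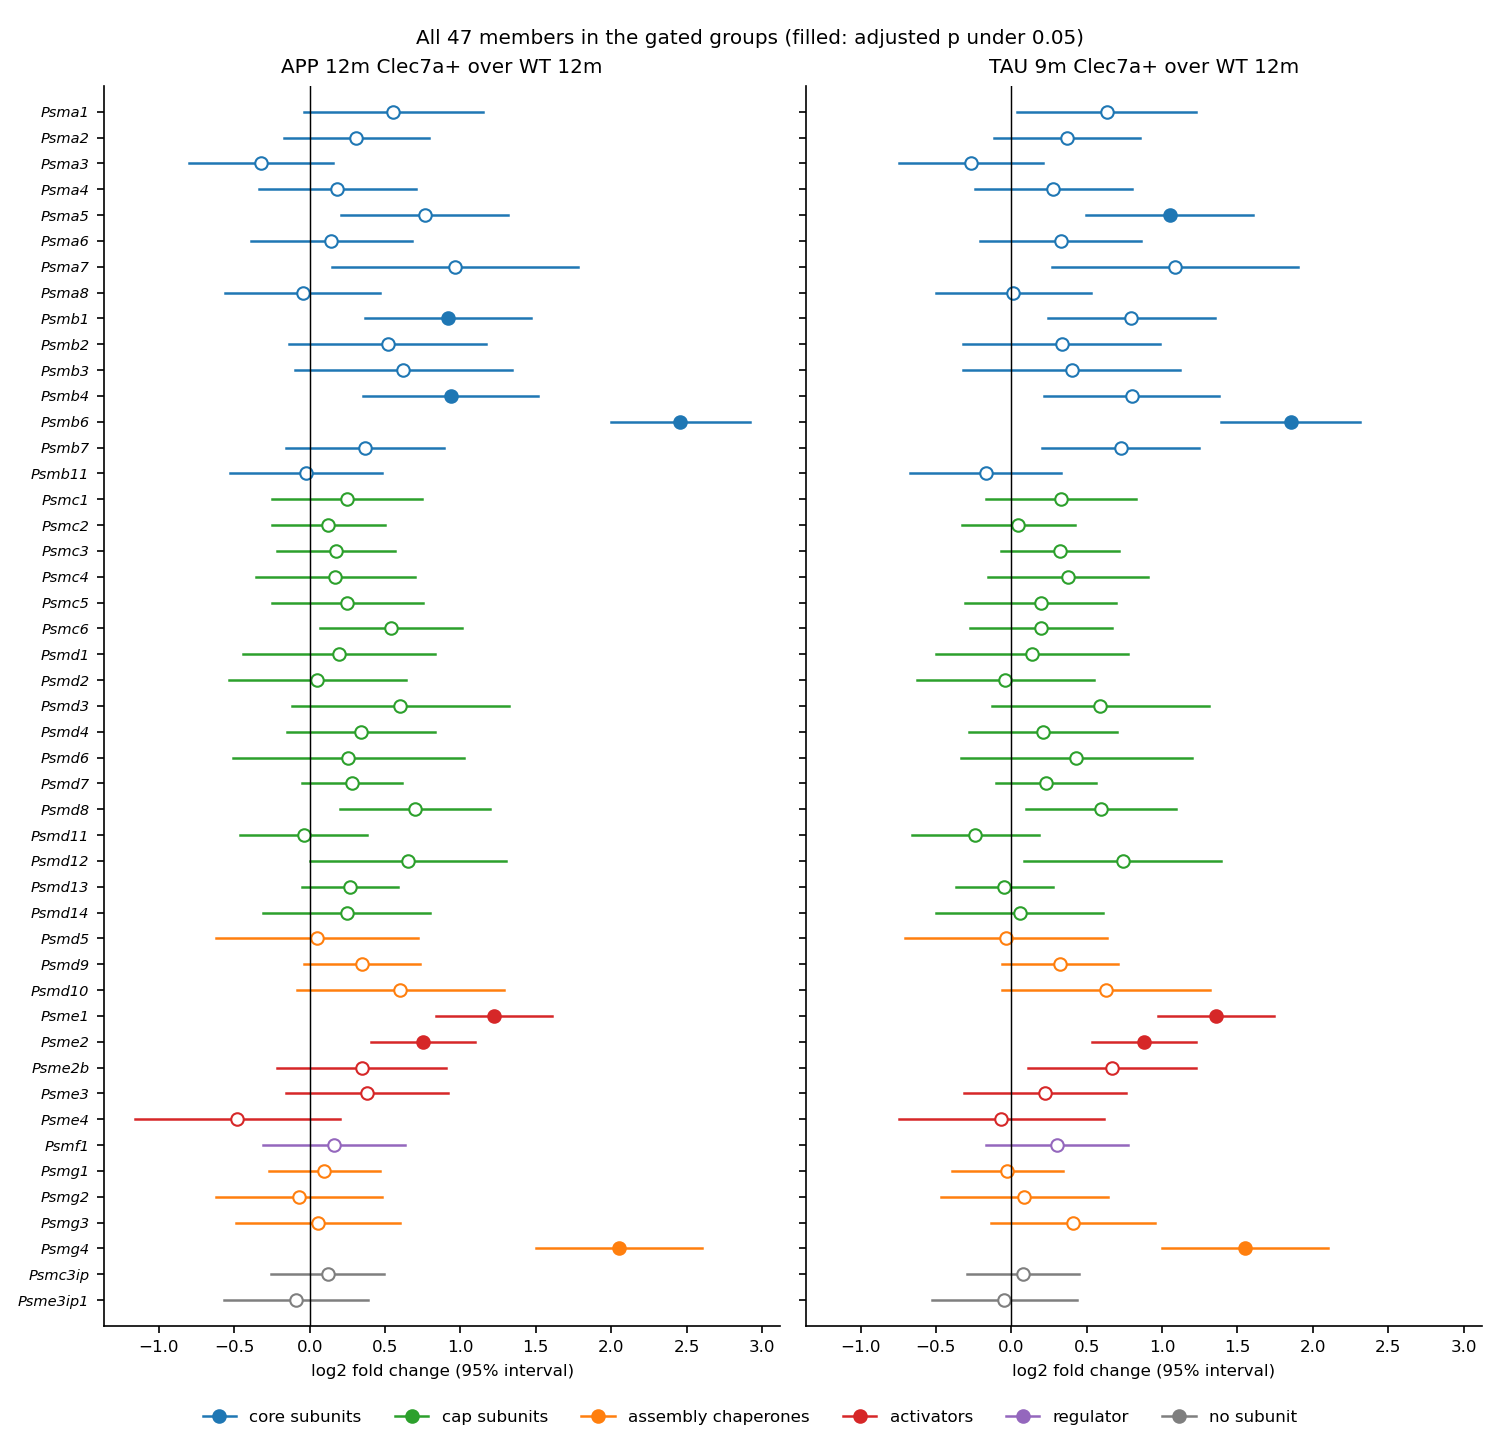
Log2 fold change against WT 12m with its 95% interval (x axis) for all 47 members (y axis), coloured by role, in gated APP (left) and gated TAU (right); filled points have an adjusted p under 0.05. Psmb6, Psmg4 and Psme1 stand above 1 in both panels, and no cap subunit among the members is filled.

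By class, 3 of 15 core subunits were called in gated APP and 2 of 15 in gated TAU, and 2 of 5 activators in each. Of all probe sets, 5.60% and 5.09% were called higher, and 11.8% and 10.3% of those above background. With so few genes, no class result is read from these counts. The 15 include Psma8 and Psmb11, at background in all 6 groups. The median log2 fold change was 0.52 for core subunits, 0.25 for cap subunits and 0.38 for activators in gated APP, and 0.40, 0.21 and 0.67 in gated TAU. Each activator median is the value of 1 uncalled gene, Psme3 in gated APP and Psme2b in gated TAU. The core and cap medians depended on the WT 12m samples, which were unlike each other. Each sample's median deviation over the 47 members, from the average of the 6 group means, was 0.01 to 0.38 in gated APP and -0.04 to 0.45 in gated TAU. In WT 12m it was -0.47 in replicate 2, -0.39 in replicate 4 and 0.31 in replicate 3. Replicates 2 and 4 also had the narrowest signals of WT 12m, with an array SD of 2.40 and 2.41, and replicate 3 had the widest of all arrays, 2.60. The part of array spread in the class medians was not tested beyond leaving samples out. Without WT 12m replicates 2 and 4 the core median was 0.15 in gated APP and 0.21 in gated TAU, and the cap median was -0.09 and -0.14. The activator median was then 0.21 and 0.51.

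Without those 2 samples, 3 members were called in gated APP and 4 in gated TAU. Psmb6, Psmg4 and Psme1 kept their calls in both, and Psme2 in gated TAU. The log2 fold changes of Psmb6 were then 2.21 and 1.61, those of Psmg4 1.87 and 1.37, and those of Psme1 1.04 and 1.17, in gated APP and gated TAU. Psme2 in gated APP had 0.71 (adjusted p = 0.0522), Psmb1 0.70 (adjusted p = 0.286) and Psmb4 0.52 (adjusted p = 0.459). Leaving out WT 12m replicate 3 alone had the opposite effect, with 9 members called in gated APP and 11 in gated TAU. Shares of all probe sets called in these fits are not given here. The shifts in count are therefore not read as particular to the members.

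**Figure D3:**
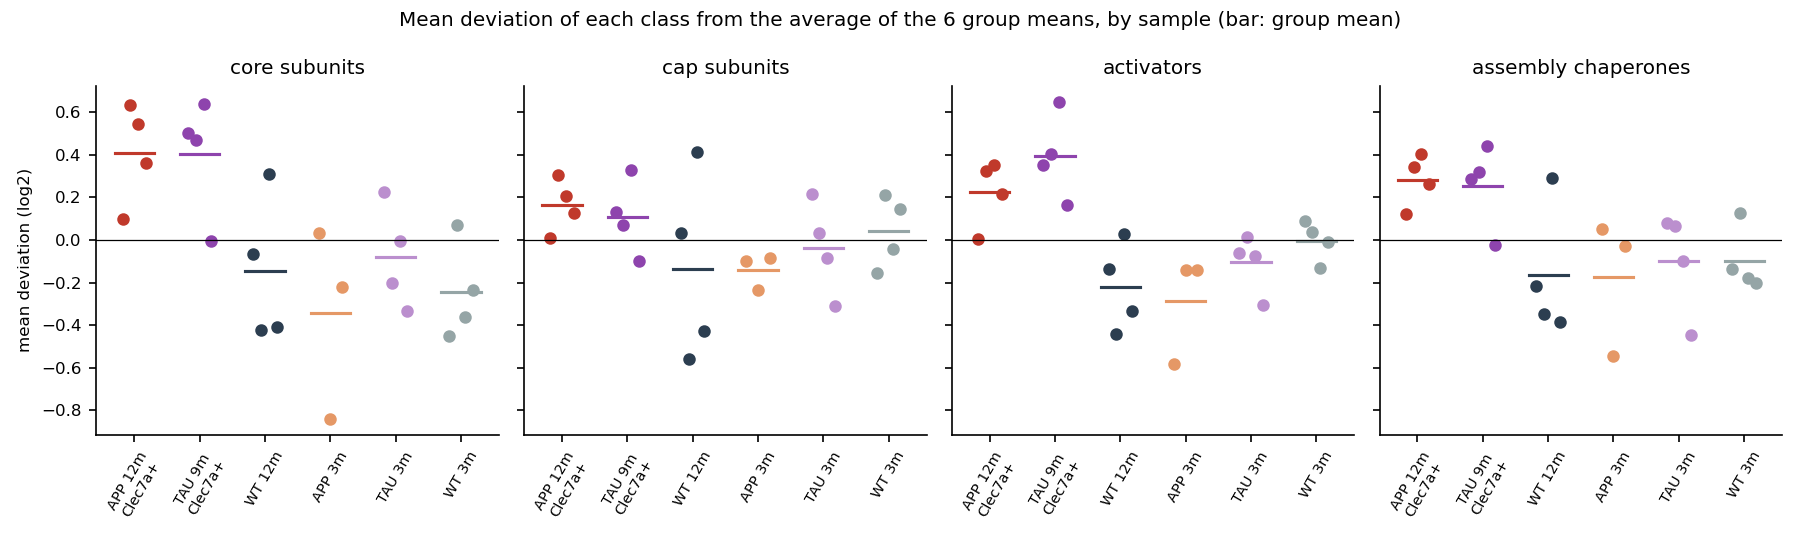
Mean deviation of core subunits, cap subunits, activators and assembly chaperones from the average of the 6 group means (y axis, log2) in each sample by group (x axis), with bars at group means. The WT 12m samples run from -0.42 to 0.31 for the core and from -0.56 to 0.42 for the cap, wider than either gated group.

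**Figure D4:**
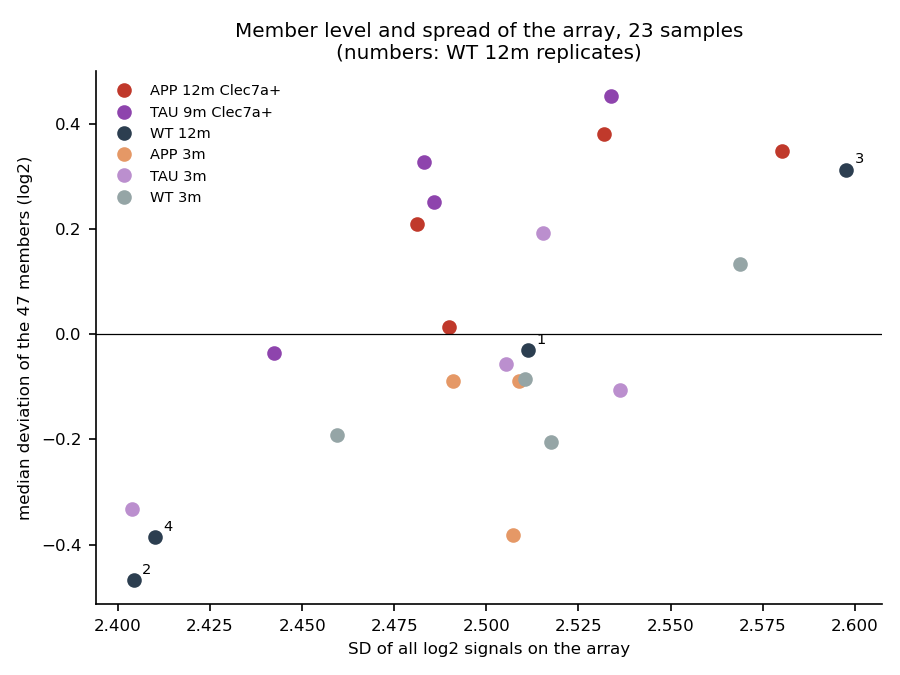
Median deviation of the 47 members (y axis, log2) against the SD of all log2 signals on the array (x axis) for the 23 samples, coloured by group. WT 12m replicates 2 and 4 lie at the low end of both axes and replicate 3 at the high end of the array SD.

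Gated APP and gated TAU did not differ in any member by limma, against 0.626% of all probe sets called higher in APP and 0.302% lower. Psmb6 alone had an unadjusted p under 0.05. It was 0.61 ± 0.22 log2 units higher in gated APP than in gated TAU (95% interval 0.14 to 1.07, adjusted p = 0.317), with all 4 gated APP samples above all 4 gated TAU samples. For Psme1 and Psme2 the differences between gated APP and gated TAU were -0.13 ± 0.19 and -0.13 ± 0.17, and for Psmg4 0.50 ± 0.26.

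The gated groups were also set against the young samples of their own line, where gate and age change together. Gated APP had 9 of 47 members higher than APP 3m and 0 lower, where 6.19% of all probe sets were higher and 5.95% lower. Gated TAU had 7 higher than TAU 3m and 0 lower, where 6.67% of all probe sets were higher and 6.81% lower. The members' shares were 19.1% and 14.9%, and 12.8% of probe sets with a mean above background were higher in each. These comparisons share no samples, and 6 members were called in both, 66.7% of the 9 and 85.7% of the 7. Of probe sets above background, 748 were called higher in both, 74.5% of those in APP and 74.7% of those in TAU, and the members' shares lay on either side of these. The 6 were Psmb6, Psmg4, Psme1, Psme2, Psma5 and Psmf1. The Psmf1 call in gated TAU was lost in 9 of 16 alternatives and that of Psma5 in 2, while the other 4 genes were called under every alternative run in both comparisons. Psmb6 was 4.48-fold higher in gated APP and 3.06-fold higher in gated TAU, each over its own line at 3 months. Psme1 was 3.51-fold and 2.99-fold higher, and Psmg4 4.08-fold and 3.33-fold. Psmf1 averaged 7.85 ± 0.07 in gated APP and 6.92 ± 0.50 in APP 3m (adjusted p = 0.0124), and 7.99 ± 0.30 in gated TAU and 7.29 ± 0.30 in TAU 3m (adjusted p = 0.0418), with both young groups at background, so that no fold is given.

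In gated APP the counts against APP 3m depended on 1 sample. Without APP 3m replicate 2, in which the core subunits had a mean deviation of -0.84, 4 members were called, and Psma5, Psma7, Psmb1, Psmb4 and Psmf1 were not. The same 5 were lost with a covariate for Y-linked transcripts, the sample's mean of Kdm5d, Uty and Eif2s3y. That mean ran from 4.16 to 7.13 in gated APP samples and from 4.14 to 4.62 in APP 3m samples, and its part in these 5 was not tested further. In gated TAU, leaving out TAU 3m replicate 4 gave 4 calls in place of 7, without Psma5, Psmf1 and Psmg3. Psmg3 was lost in 10 of 16 alternatives. Psmb6, Psmg4, Psme1 and Psme2 kept their calls in each of these 3 fits. Shares of all probe sets called in them are not given here.

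Wild-type aging and young genotype gave no call among the members. WT 12m and WT 3m differed in 0 members by limma, with 0.036% of all probe sets called in either direction, and 3 members had an unadjusted p under 0.05. Of these, Psma8 lay at background. Psmd7, a cap subunit named after its values were seen (-0.41 ± 0.16), and Psme3 (-0.57 ± 0.26) had all WT 12m samples below all WT 3m samples. Over all probe sets, 2.07% had every WT 12m sample below every WT 3m sample. APP 3m against WT 3m and TAU 3m against WT 3m each gave 0 members and 0% of all probe sets called in either direction. In each, 1 member had an unadjusted p under 0.05, with Psme2 at -0.41 ± 0.18 in APP 3m and Psmd7 at -0.49 ± 0.16 in TAU 3m. Psmb6 differed by -0.42 ± 0.22 between WT 12m and WT 3m (adjusted p = 0.584).

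The change with age in each line, less the change with age in WT, was tested as an interaction. In APP and TAU the gate changes together with age, and the 2 cannot be told apart. For TAU the step is from 3 to 9 months, against 3 to 12 months in WT. In APP, 4 members (8.51%) were called higher, against 2.82% of all probe sets and 6.14% of those above background. The difference was 2.58 ± 0.33 for Psmb6 (adjusted p = 2.11e-05), 2.11 ± 0.39 for Psmg4 (adjusted p = 0.00172), 1.51 ± 0.27 for Psme1 (adjusted p = 0.00142) and 1.16 ± 0.24 for Psme2 (adjusted p = 0.00594). In TAU, the same 4 genes were called, against 2.60% of all probe sets and 5.62% of those above background, with differences of 2.04 ± 0.31 for Psmb6 (adjusted p = 0.000295), 1.81 ± 0.37 for Psmg4 (adjusted p = 0.00613), 1.28 ± 0.26 for Psme1 (adjusted p = 0.00585) and 0.92 ± 0.23 for Psme2 (adjusted p = 0.0278). Both interactions use the same WT samples. Without WT 12m replicates 2 and 4, Psmb6 and Psmg4 alone were called in TAU. The Psme2 call in TAU was lost in 9 of 25 alternatives, among them 7 that left out 1 sample (WT 3m replicate 2 or 3, TAU 3m replicate 3 or 4, WT 12m replicate 4, and gated TAU replicate 1 or 2). With the Y-linked covariate Psme2 was lost in both interactions. The Y-linked mean averaged 5.72 in gated TAU, 6.70 in WT 12m, 4.41 in APP 3m, 4.93 in TAU 3m and 7.18 in WT 3m, and its part in the Psme2 difference was not tested further. Psmb6 and Psmg4 were called under all alternatives run in both interactions.

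**Figure D5:**
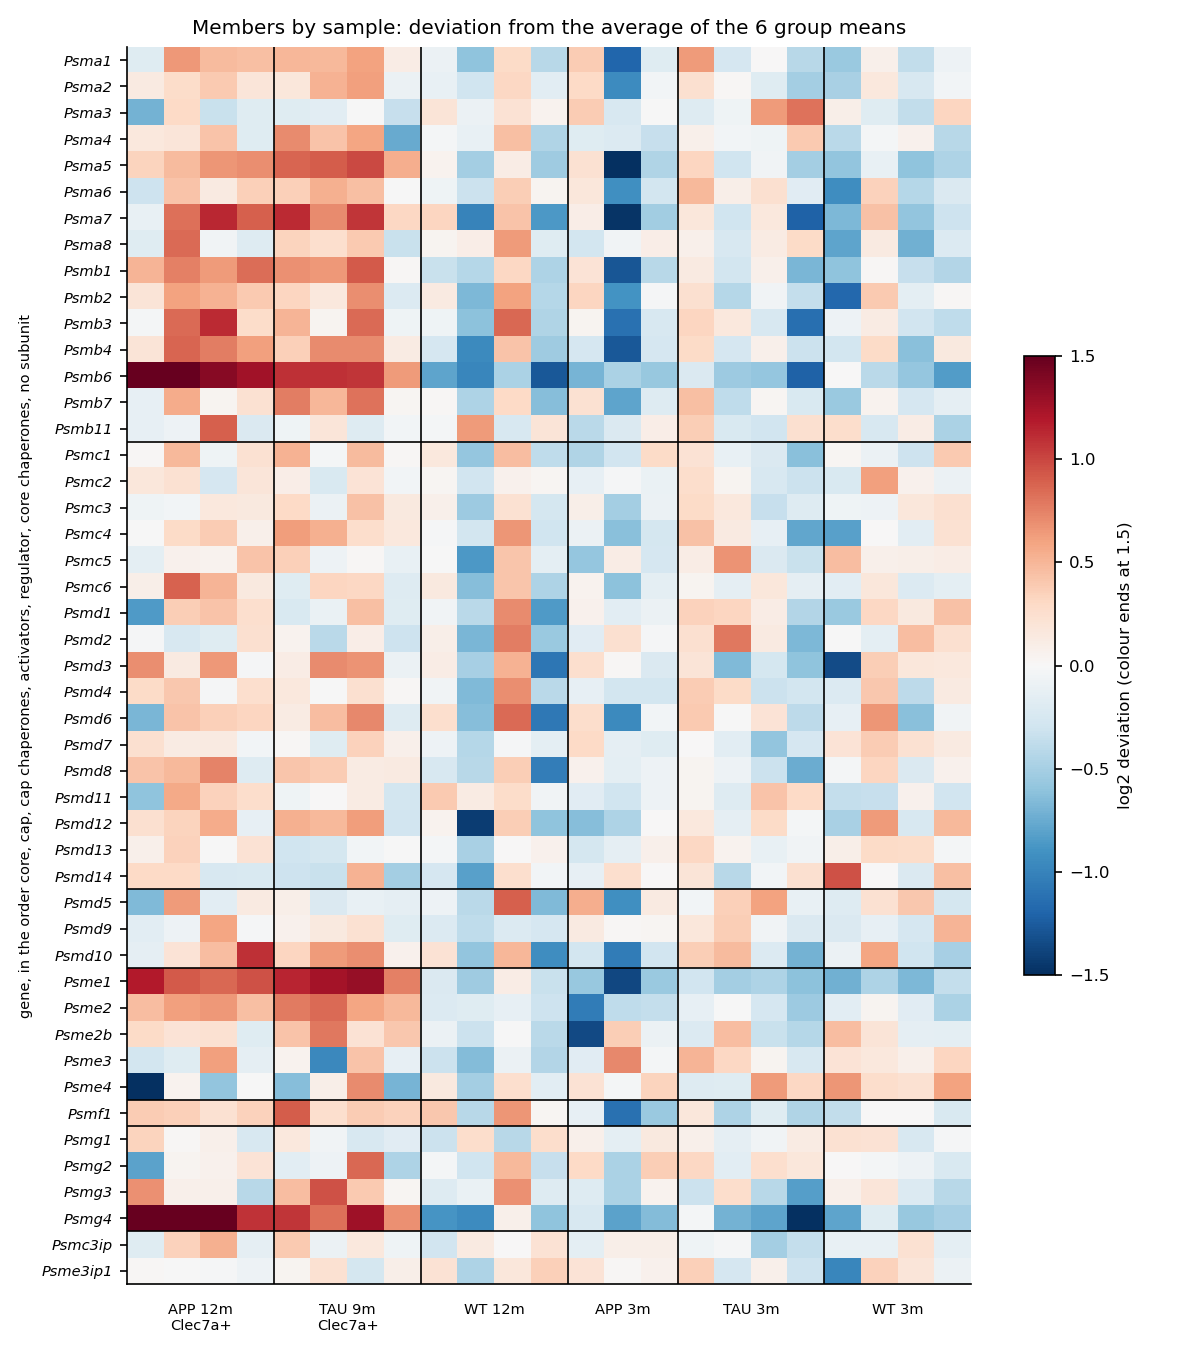
Deviation of each member (rows, in role order) in each sample (columns, by group) from the average of the 6 group means, in log2 units, with colours ending at 1.5 either way. The rows of Psmb6, Psmg4, Psme1 and Psme2 are red in all gated samples, and most cap rows follow the split among the WT 12m samples instead.

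The subunits that the rule left out, which take the place of the standard catalytic subunits, were higher in part. Psmb8 had 12.09, 12.26, 12.29 and 12.04 in gated APP, 12.14, 12.06, 12.45 and 11.44 in gated TAU, and 10.8, 10.21, 11.12 and 10.44 in WT 12m. The gated samples lay above WT 12m without overlap, 2.88-fold higher in gated APP (adjusted p = 0.000172) and 2.60-fold in gated TAU (adjusted p = 0.000763). Psmb9, which replaces Psmb6, was 2.33-fold higher in gated APP (adjusted p = 0.00452) and 2.03-fold in gated TAU (adjusted p = 0.02). Psmb10 was not called, with log2 fold changes of 0.62 ± 0.26 and 0.74 ± 0.26.

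Of 11 other proteasome subunits and partners measured, 3 were higher and 1 lower in gated APP, and 2 were higher in gated TAU. Pomp, the chaperone of beta ring assembly, was 2.19-fold higher in gated APP (adjusted p = 0.0209) and 2.09-fold in gated TAU (adjusted p = 0.0335). Sem1, the smallest cap subunit, was 2.03-fold (adjusted p = 0.00234) and 2.25-fold higher (adjusted p = 0.000897). In gated APP, Zfand2a, an arsenite-inducible partner of the proteasome, was higher (log2 1.28 ± 0.29, adjusted p = 0.00525) and Zfand5, another zinc finger partner, was lower (log2 -0.93 ± 0.16, adjusted p = 0.000459). Of 5 shuttle genes, Sqstm1 was called, in gated APP (log2 0.93 ± 0.27, adjusted p = 0.0295). Of 12 genes for Vcp and its cofactors, Ufd1 was called higher, in both gated groups (log2 0.84 and 0.77). None of the 3 measured genes of proteasome transcription was called by limma, with 0 in gated APP and 1 in gated TAU at an unadjusted p under 0.05. Among them, Nfe2l2 and Ngly1 lay at background in both gated groups and in WT 12m. Nfe2l1, the factor that raises proteasome genes when the proteasome is inhibited, had log2 fold changes of 0.46 ± 0.26 in gated APP (adjusted p = 0.307) and 0.07 ± 0.26 in gated TAU (adjusted p = 0.904).

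Downstream of the proteasome, 5 of 10 genes of MHC class I peptide loading were higher in gated APP (H2-D1, H2-K1, B2m, Tap1 and Canx) and 4 in gated TAU (the same without Canx). Of 4 genes of the interferon gamma response, 0 were called in gated APP by limma, with 2 at an unadjusted p under 0.05, and 1 was higher in gated TAU, the transcription factor Irf8 (log2 1.04 ± 0.26, adjusted p = 0.0117). Irf1 had -0.38 ± 0.22 in gated APP and -0.23 ± 0.22 in gated TAU.

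Markers of other cells moved with some of these comparisons. The mean of 5 neutrophil markers was 5.52 to 5.76 in gated APP, 5.53 to 5.75 in gated TAU and 6.22 to 8.27 in WT 12m, with all 5 at background in the gated groups and 4 of 5 in WT 12m. Of 7 astrocyte markers, Gfap was called higher in gated APP (log2 2.43, a bound, since Gfap was at background in WT 12m). In the same comparison 5 of the 7 had negative log2 fold changes and the median was -0.40. In gated TAU none of the 7 was called by limma, with 2 at an unadjusted p under 0.05 and a median of -0.64. All 5 endothelial markers were at background in WT 12m. Of these, Flt1 was higher in gated APP (log2 2.08, a bound) and Pecam1, at background in gated APP too, was lower. Of 6 border macrophage markers Cbr2 was lower in gated APP, where it lay at background, than in WT 12m (log2 -1.23). Mrc1 was lower in gated APP than in gated TAU (log2 -1.68). Of the 11 microglial markers, 6 were lower in gated APP and 7 in gated TAU, among them Tmem119 (log2 -3.31 and -2.89). Against the young samples of the same line the shifts were wider. In gated APP, 5 of 6 border macrophage markers were lower than in APP 3m (median -0.77), and 3 of 7 astrocyte markers were lower and 1, Gfap, higher (median -1.60). Their mean signals were 7.34 to 7.58 in gated APP and 8.61 to 8.94 in APP 3m for border macrophages, and 8.10 to 9.33 and 9.51 to 10.6 for astrocytes. Of these markers, Cd163, F13a1, Lyve1, Aqp4 and Gja1 lay at background in both gated APP and APP 3m. Cbr2 did so in gated APP only and Gfap in APP 3m only. In gated TAU, 2 of 7 astrocyte markers (median -1.21) and 2 of 5 neutrophil markers (median -1.74) were lower than in TAU 3m, and 0 of 6 border macrophage markers were called by limma, with 2 at an unadjusted p under 0.05. The part of these shifts in the proteasome genes was not tested. In bulk RNA, fewer cells of a type and less RNA per cell cannot be told apart.

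In the RefSeq table, 39 of 47 members had a promoter window, 6 of them among the 7 called in a gated group against WT 12m. Motifs were searched on both strands, with no test made. The interferon-stimulated core was in the windows of 5 of 39 members (12.8%; Psme1, Psmg4, Psmb3, Psmd4 and Psmd9) and in 3.44% of all 32851 windows. TGACNNNGC was in 5 (12.8%; Psmb6, Psmc6, Psmd12, Psmd9 and Psme4) and in 12.4% of all windows. The ETS letters CCGGAAG were in 16 members (41.0%) and 8.86% of all windows, and in 0 of the 6 called members. CCAAT was in 15 members (38.5%) and 37.4% of all windows, again in 0 of the 6. The GC box core GGCGG was in 33 members (84.6%) and 48.8% of all windows, the heat shock core TTCNNNGAA in 2 (5.13%) and 8.30%, and the cAMP element TGACGTCA in 0 and 1.79%. Some members have several windows and were counted once. A match describes letters only.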

How the data were processed

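Each probe set has 1 deposited log2 value a sample. The submitters' processing notes name RMA and the Transcriptome Analysis Console as the tools; versions are not given in the sources used here. RMA corrects background, normalises between arrays and summarises probes, and it can narrow differences of dim probe sets. RNA was TriPure-extracted, and 5 ng was labelled by a 3' kit, per the labels. Symbols came from the platform annotation, which named 19572 of 22203 probe sets.

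limma 3.58.1 (R 4.3.3) was fitted on all 23 samples with 1 mean per group, 17 residual and 5.11 prior degrees of freedom. Calls were two-sided at a Benjamini-Hochberg adjusted p under 0.05 over all probe sets. The fit was tested on simulated data. Genes were named by role (catalytic, scaffold, receptor, activators and chaperones), and by class as the 4 called members with the largest difference and the member with the smallest in each gated comparison, plus at most 6 called in any other. The members and lists were chosen with earlier results of these data known. Alternatives were array centring, quantile normalisation, a trended robust variance, a filter on dim probe sets, the compared groups alone, array weights, a Y-linked covariate, a replicate block and leaving samples out.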

Additional observations from a re-analysis of the deposited data

Results flagged for a closer look

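Of 135 pairs of a named member and a group of 4, 12 held a sample that stood far from the other 3; chance alone flags about 1 in 20 such groups, or 5%. In gated APP, Psmd1 was 9.54 in replicate 1, against 10.64 to 10.82 in the others, and Psmg2 was 7.28 in replicate 1, against 8.12 to 8.29. Psma8 was 6.6 in gated APP replicate 2, against 5.56 to 5.7, at background throughout. In gated APP replicate 3, Psmb11 was 6.23 against 5.12 to 5.26, Psmc2 was 10.12 against 10.55 to 10.6, and Psme3 was 11.23 against 10.34 to 10.48. Psme2b was 13.33 in gated APP replicate 4, against 13.72 to 13.8. In gated TAU, Psmb6 was 12.06 in replicate 4, against 12.49 to 12.52. In WT 12m, Psmb1 was 13.97 and Psmg3 was 8.18 in replicate 3, against 13.2 to 13.32 and 7.3 to 7.39, and Psmc2 was 10.09 in replicate 2, against 10.4 to 10.44. In WT 3m, Psmd11 was 9.01 in replicate 3, against 8.59 to 8.66.

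The change with age differed between the lines and WT by the interaction test in 4 members each. In APP the differences were 2.58 for Psmb6, 2.11 for Psmg4, 1.51 for Psme1 and 1.16 for Psme2 on the log2 scale. In TAU they were 2.04 for Psmb6, 1.81 for Psmg4, 1.28 for Psme1 and 0.92 for Psme2. Gate and age change together in these comparisons and cannot be told apart. For TAU the step is from 3 to 9 months, against 3 to 12 months in WT.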

How the results depend on the processing

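Of 114 values under alternatives for the 6 counts of called members above 0, 103 stayed within 1.5 times the reported count; the other 4 counts were 0 under every alternative run. For gated APP against WT 12m, 6 called members became 3 without WT 12m replicates 2 and 4, and leaving out 1 sample gave 4 to 9. For gated TAU against WT 12m, 5 became 8 with quantile normalisation, array weights or the dim filter and 9 with the Y-linked covariate, and leaving out 1 sample gave 4 to 11. For gated APP against APP 3m, 9 became 4 with the Y-linked covariate, and leaving out 1 sample gave 4 to 10; for gated TAU against TAU 3m it gave 4 to 7. The APP interaction gave 4 to 7 calls with 1 sample left out, and the TAU interaction 3 to 5, and 2 without WT 12m replicates 2 and 4. Without those 2 samples the median of the core in gated APP was 0.15, and that of the cap was -0.09 in gated APP and -0.14 in gated TAU. Of 187 values for the 11 called gene results against WT 12m, 168 were still called, 19 were not, and 0 changed sign; of 721 values for the 43 results that were not called, 21 were called. Psmb6, Psmg4 and Psme1 were called in all 17 alternatives in both gated comparisons with WT 12m, Psme2 in 17 for TAU and 16 for APP. The causes of these changes were not tested, and shares of all probe sets called under the alternatives are not given here. In gated APP, Psmb4 was also lost when only the 2 groups were fitted (adjusted p = 0.104).

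Replicate numbers were not taken as pairing the samples, since the labels name no shared source and not every pair correlated over 0.1. Over 55 pairs of the same number, deviations correlated at -0.52 to 0.55 (median 0.10), with 28 over 0.1, against a median of -0.03 and 40 over 0.1 among 165 pairs of other numbers. In 13 of 23 samples the best correlation was with a sample of their own number, a hint from the data, not from the design. With the replicate block, 7 members were called in gated APP and 6 in gated TAU against WT 12m, 10 and 8 against their own young line, and 5 and 4 in the interactions. Class medians under the block were 0.52, 0.25 and 0.38 in gated APP, as reported. They could not differ, since the gated groups and WT 12m each hold every replicate number once. The unchanged medians therefore say nothing about pairing.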
